A study of Homo sapiens with 21 samples.

Results

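Immediate early genes and phosphatases of mitogen-activated protein (MAP) kinases were followed through tunicamycin (Tm) treatment in a leukaemic and a kidney cell line. The genes were EGR1, FOS, JUN, IER2, IER3, DUSP1, DUSP2, DUSP4, DUSP5 and DUSP6, 10 of the 60671 genes of the count table, each matched to a single row by its Ensembl ID. They were chosen by their changes in these same libraries, in the 3 comparisons of Tm with DMSO and that of DMSO at 4 h with untreated cells, with their levels in all 7 groups known. Their values in those 4 comparisons are therefore a description, and no p-value of a single gene of them is given there. Calls and counts of these genes past a p threshold are part of that description and test nothing.

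RNA-seq of polyadenylated RNA was performed on 21 libraries, 3 in each of 7 groups. OCI-AML3, a human acute myeloid leukaemia line, was collected untreated at 0 h, after 4 h in the solvent dimethyl sulfoxide (DMSO), after 4 h in Tm at 1 μg/mL, after 24 h in DMSO and after 24 h in Tm at 1 μg/mL. HEK293T, a transformed human embryonic kidney line, was collected after 24 h in DMSO and after 24 h in Tm at 1 μg/mL. Every group is a culture of a single established line, and the labels name no other agent or genetic change in any of them. The sources used here do not say that replicates were separate cultures, so p-values measure only the spread between these libraries, which may be technical.

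Tm inhibits the first step of N-linked glycosylation, so that unfolded proteins build up in the endoplasmic reticulum (ER stress). Immediate early genes are transcribed within minutes of a signal from transcription factors that are already present, such as serum response factor (SRF) with its ternary complex partners, CREB and AP-1, once MAP kinases (ERK, JNK and p38) are active. EGR1, FOS and JUN encode transcription factors, and FOS and JUN proteins pair to form AP-1. DUSP genes encode dual specificity phosphatases that remove phosphate from active MAP kinases, so that the same signal that induces many of them is also shut off by them. DUSP1, DUSP2, DUSP4 and DUSP5 act in the nucleus, DUSP6 acts in the cytoplasm and prefers ERK, and OCI-AML3 is known as a line with an activated RAS pathway.

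Levels are given as CPM, counts scaled to TMM-adjusted library size. The libraries held 13838466 to 19961798 counts, which sets the precision of the low genes. HSPA5, the ER chaperone BiP, showed the treatment: its log2 fold change with Tm was 3.29 and 3.52 in OCI-AML3 at 4 h and 24 h and 2.701 in HEK293T (edgeR quasi-likelihood adjusted p at most 2.9e-19). Of the markers of the lines, PTPRC and MPO were at 0 in all 6 HEK293T libraries and SPI1 and CD33 had at most 4 counts there, while PAX2 was at 0 in all 15 OCI-AML3 libraries. HOXA9, on the OCI-AML3 list, went against it: it was at 122 CPM in HEK293T and 59.1 CPM in OCI-AML3 in DMSO at 24 h (edgeR adjusted p = 1.8e-11). TUBB3 overlapped between the lines. The 5 OCI-AML3 markers summed to 577 to 801 CPM in OCI-AML3 and 84.9 to 124 CPM in HEK293T, and those of HEK293T to 10.4 to 21.4 CPM in OCI-AML3 and 128 to 148 CPM in HEK293T. MPO, a defining myeloid marker, stood at only 1.44 to 1.57 CPM in untreated OCI-AML3.

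A library stood apart for several of the genes. Replicate 2 of OCI-AML3 in DMSO at 4 h was the highest of its group by more than 1.5 times for 3 of the 10 genes, JUN, DUSP1 and EGR1, and for 2 of 24 other immediate early genes tested, CCN2 and FOSB. The log2 fold changes of JUN, DUSP1 and EGR1 that use that library are given with and without it.

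The promoters are printed for 3 genes, EGR1 and JUN, which were far higher in Tm at 4 h, and DUSP2, which was far lower. RefSeq promoter windows (GRCh38.p14) were matched for 7 of the 10 genes: EGR1, FOS, JUN, IER2, DUSP1, DUSP2 and DUSP6. IER3, DUSP4 and DUSP5 were not matched. The bases shown are the 250 that end just before the transcription start, 5′ to 3′ on the strand of the gene, at chr5:138465229-138465478 (plus strand) for EGR1, chr1:58784048-58784297 (minus strand) for JUN and chr2:96145441-96145690 (minus strand) for DUSP2. Capitals mark matches to the motifs searched, the CArG boxes of EGR1 that SRF is known to bind and the AP-1-like site of JUN.
EGR1: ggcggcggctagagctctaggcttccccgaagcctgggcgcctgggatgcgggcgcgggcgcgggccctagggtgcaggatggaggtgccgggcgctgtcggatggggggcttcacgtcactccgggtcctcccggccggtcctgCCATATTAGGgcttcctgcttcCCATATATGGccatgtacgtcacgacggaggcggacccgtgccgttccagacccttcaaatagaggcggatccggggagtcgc
JUN: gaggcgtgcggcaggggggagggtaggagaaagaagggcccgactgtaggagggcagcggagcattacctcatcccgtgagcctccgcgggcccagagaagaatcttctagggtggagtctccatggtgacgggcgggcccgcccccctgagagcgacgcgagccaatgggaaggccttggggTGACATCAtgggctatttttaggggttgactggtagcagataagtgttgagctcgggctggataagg
DUSP2: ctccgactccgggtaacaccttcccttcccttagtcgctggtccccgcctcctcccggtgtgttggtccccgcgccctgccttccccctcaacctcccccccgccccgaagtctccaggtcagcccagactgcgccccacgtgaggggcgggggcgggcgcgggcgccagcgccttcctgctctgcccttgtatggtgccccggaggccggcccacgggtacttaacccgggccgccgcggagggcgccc

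The promoter search used 4 motifs, sought on both strands of the whole windows, 250 bases before to 50 after the start: the CArG box, the CRE (TGACGTCA), the AP-1 site (TGACTCA) and the C/EBP-ATF composite site (TGATGNAAN). EGR1 held CArG boxes that begin 105 and 83 bases before the start, and DUSP1 held a CRE that begins 125 bases before it. The other 5 matched windows held none of these letters. Of 27305 genes with a window, 1.604% held a CArG box, 2.25% a CRE, 6.05% an AP-1 site and 4.45% a composite site. The variant TGACATCA, searched after the values of JUN had been seen, began 67 bases before the start of JUN and was held by 3.18% of the genes. It overlaps none of the other matches, and a match is a stretch of letters, not a shown binding site.

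Across the 10 genes, Tm at 4 h in OCI-AML3 was the Tm comparison with most calls. A gene was called at an adjusted p of at most 0.05 with a log2 fold change above 1 or below -1. JUN, EGR1, IER3, DUSP5 and DUSP6 were called higher and DUSP2 was called lower at 4 h, beside 3.45% of the 14012 genes tested called higher and 1.47% called lower. At 24 h, IER3 was called higher and DUSP2 lower, beside 4.05% of the 14012 genes tested called higher and 2.26% called lower. In HEK293T at 24 h none of the 10 was called, beside 1.58% of the 14012 genes tested called higher and 0.55% called lower. That count of 0 held for edgeR, limma voom and DESeq2, and at an unadjusted p under 0.05 it was 2 of 10 with edgeR and 3 of 10 with each of the others, beside 5130 of 14012 genes with edgeR, 5332 with limma voom and 5090 with DESeq2. Nothing is read from these shares, since the genes were selected on these comparisons. Over the 10 genes the median change on the log2 scale was 0.87 at 4 h, 0.15 at 24 h and 0.11 in HEK293T, where the medians over all genes tested were -0.02, -0.01 and -0.01.

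**Figure D1:**
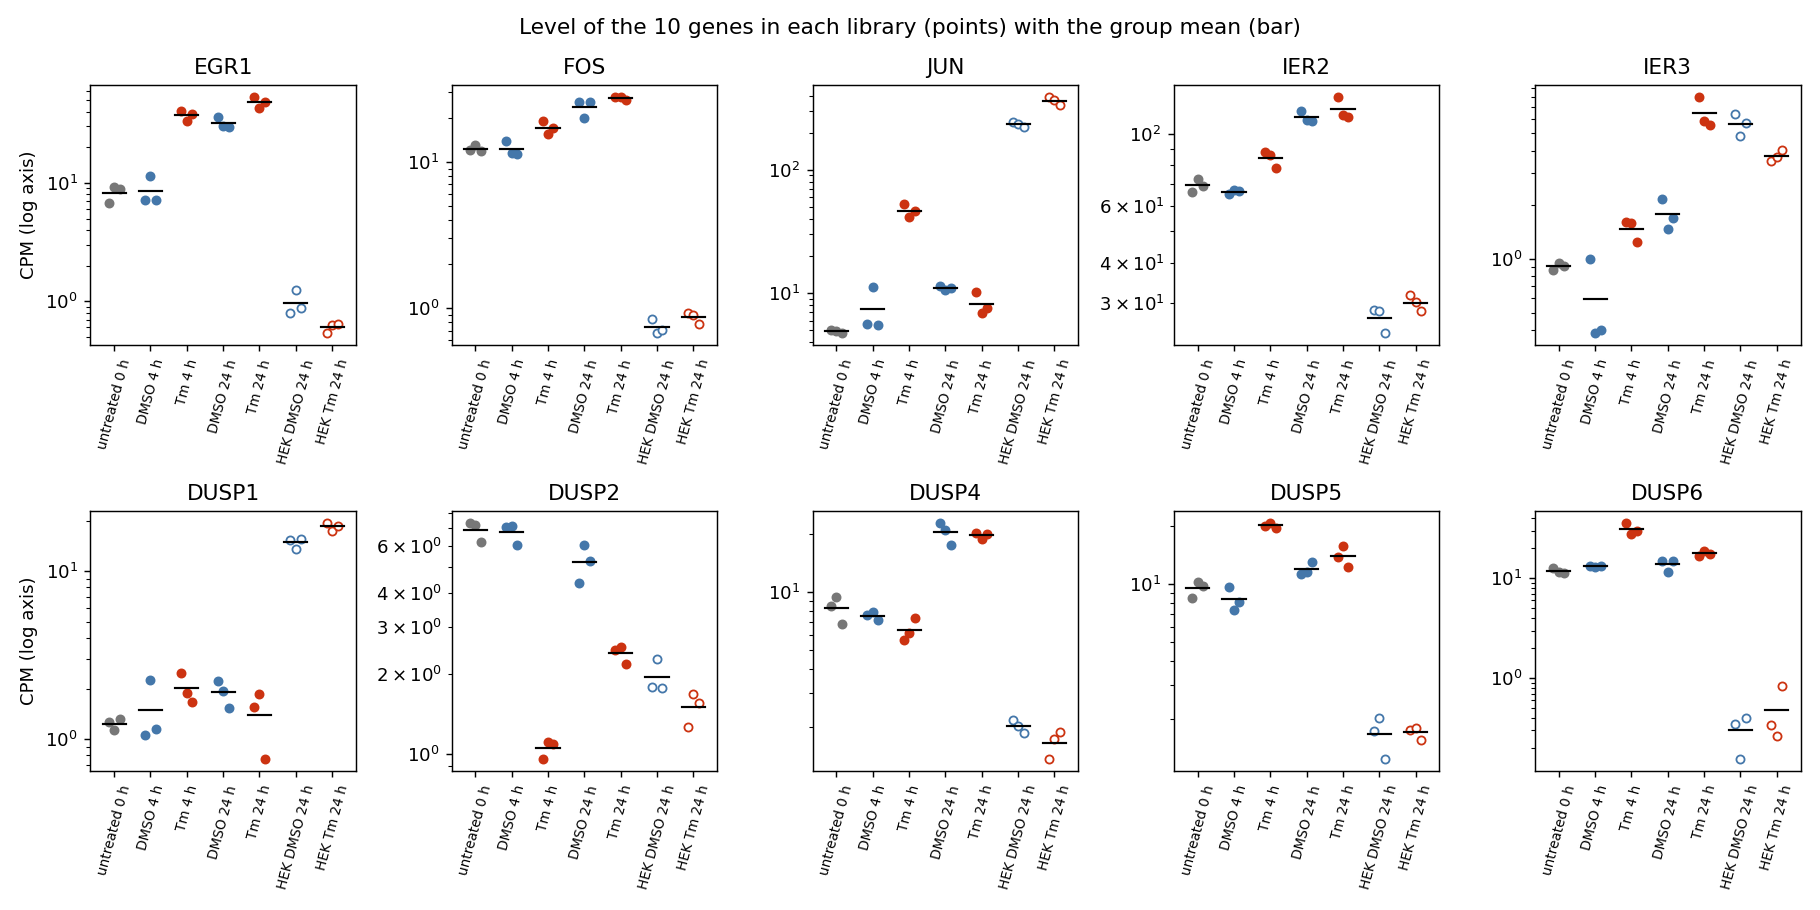
Level of each of the 10 genes in CPM (log axis, a different range in each panel) in the 21 libraries, with a point for each library, the group mean as a bar, filled points for OCI-AML3 and open points for HEK293T (grey untreated, blue DMSO, red Tm). JUN at 4 h in Tm stood at 41.3 to 52.4 CPM against 5.54 to 11.2 CPM in DMSO, and DUSP2 at 0.958 to 1.11 against 6.06 to 7.16 CPM.

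EGR1 (ENSG00000120738, chr5:138465479-138469303 on GRCh38, plus strand) encodes a zinc finger transcription factor and is a classical readout of ERK and SRF activity. It was at 6.73, 9.18 and 8.94 CPM in the untreated libraries of OCI-AML3 and at 7.17, 11.4 and 7.20 CPM in DMSO at 4 h. In Tm at 4 h it was at 40.5, 33.2 and 38.4 CPM. Each Tm library thus lay above every DMSO and untreated library of the early time. At 24 h the levels were 36.2, 30.1 and 30.0 CPM in DMSO and 53.5, 43.1 and 48.3 CPM in Tm. The DMSO libraries had themselves come close to the level of Tm at 4 h, and the Tm libraries lay above them without overlap. The log2 fold change with Tm was 2.12 ± 0.15 (SE) at 4 h and 0.59 ± 0.13 at 24 h, a difference of -1.53 ± 0.20. Without replicate 2 of DMSO at 4 h the early change was 2.38.

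In HEK293T, EGR1 was close to the floor, with 16, 24 and 20 counts in DMSO (0.793, 1.24 and 0.881 CPM) and 11, 12 and 10 counts in Tm (0.535, 0.630 and 0.647 CPM). The Tm libraries were lower without overlap, with a log2 fold change of -0.68 ± 0.38, and the gene was not called.

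FOS (ENSG00000170345, chr14:75278826-75282230, plus strand), the partner of JUN in AP-1, differed less between Tm and DMSO than EGR1. It was at 11.9 to 13.01 CPM untreated, 11.3 to 13.9 CPM in DMSO and 15.4 to 19.02 CPM in Tm at 4 h. At 24 h it was at 20.02 to 25.6 CPM in DMSO and 26.7 to 27.9 CPM in Tm. Tm and DMSO libraries did not overlap at either time, yet the differences were small, with log2 fold changes of 0.49 ± 0.11 and 0.21 ± 0.10. In HEK293T the levels overlapped at 0.671 to 0.842 CPM in DMSO and 0.777 to 0.925 CPM in Tm, from 12 to 19 counts a library.

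JUN (ENSG00000177606, chr1:58776845-58784048, minus strand) is a target of JNK and of its own product. The gene has a single exon. It was at 5.06, 4.90 and 4.72 CPM untreated, 5.64, 11.2 and 5.54 CPM in DMSO at 4 h and 52.4, 41.3 and 46.6 CPM in Tm at 4 h. The high value in DMSO replicate 2 was far below the lowest Tm library. The log2 fold change at 4 h was 2.65 ± 0.17, and 3.06 without that DMSO library. At 24 h JUN was at 11.4, 10.6 and 10.99 CPM in DMSO and 10.2, 6.91 and 7.60 CPM in Tm. Here each Tm library lay below each DMSO library, with a log2 fold change of -0.42 ± 0.19, and the gene was not called. The change at 24 h minus that at 4 h was -3.07 ± 0.25, the largest such difference in size among the 10 genes.

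HEK293T carried far more JUN RNA. It was at 245, 236 and 221 CPM in DMSO and 391, 366 and 336 CPM in Tm. The Tm libraries were all higher, with a log2 fold change of 0.64 ± 0.13, and the gene was below the fold change threshold. The Tm effect in HEK293T minus that in OCI-AML3 at 24 h was 1.06 ± 0.23. Tm and DMSO libraries were thus ordered in opposite ways in the lines at 24 h.

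IER2 (ENSG00000160888, chr19:13150411-13154911, plus strand), an immediate early gene for a nuclear protein, was the most abundant of the 10 in OCI-AML3. Its level was 66.0 to 72.7 CPM untreated, 65.2 to 67.1 CPM in DMSO at 4 h and 78.3 to 87.7 CPM in Tm at 4 h. At 24 h it was 109 to 118 CPM in DMSO and 113 to 129.9 CPM in Tm. The early groups did not overlap and the late groups did, with log2 fold changes of 0.34 ± 0.07 and 0.08 ± 0.07. In HEK293T it was at 24.3 to 28.6 CPM in DMSO and 28.4 to 31.9 CPM in Tm, which overlapped.

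IER3 (ENSG00000137331, chr6:30743199-30744548, minus strand), a stress-induced gene for a small protein that modulates survival and ERK signalling, was higher in Tm at both times in OCI-AML3. It was low early, with 0.863, 0.943 and 0.911 CPM untreated and 0.995, 0.383 and 0.400 CPM in DMSO at 4 h, the latter from 15, 6 and 7 counts. In Tm at 4 h it was at 1.596, 1.58 and 1.23 CPM, from 25, 27 and 17 counts. DMSO replicate 1 was the highest of its group, and without it the early log2 fold change went from 1.33 ± 0.32 to 1.90. At 24 h IER3 was at 2.15, 1.46 and 1.69 CPM in DMSO and 7.99, 5.87 and 5.54 CPM in Tm, a log2 fold change of 1.87 ± 0.23. The later effect minus the earlier was 0.53 ± 0.42, and it was -0.03 without DMSO 4 h replicate 1.

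In HEK293T, IER3 was ordered the other way. It was at 6.39, 4.85 and 5.72 CPM in DMSO and 3.505, 3.68 and 4.01 CPM in Tm. Each Tm library lay below each DMSO library, with a log2 fold change of -0.60 ± 0.20. The Tm effect in HEK293T minus that in OCI-AML3 at 24 h was -2.47 ± 0.30, the largest in size of the 10 genes.

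**Figure D2:**
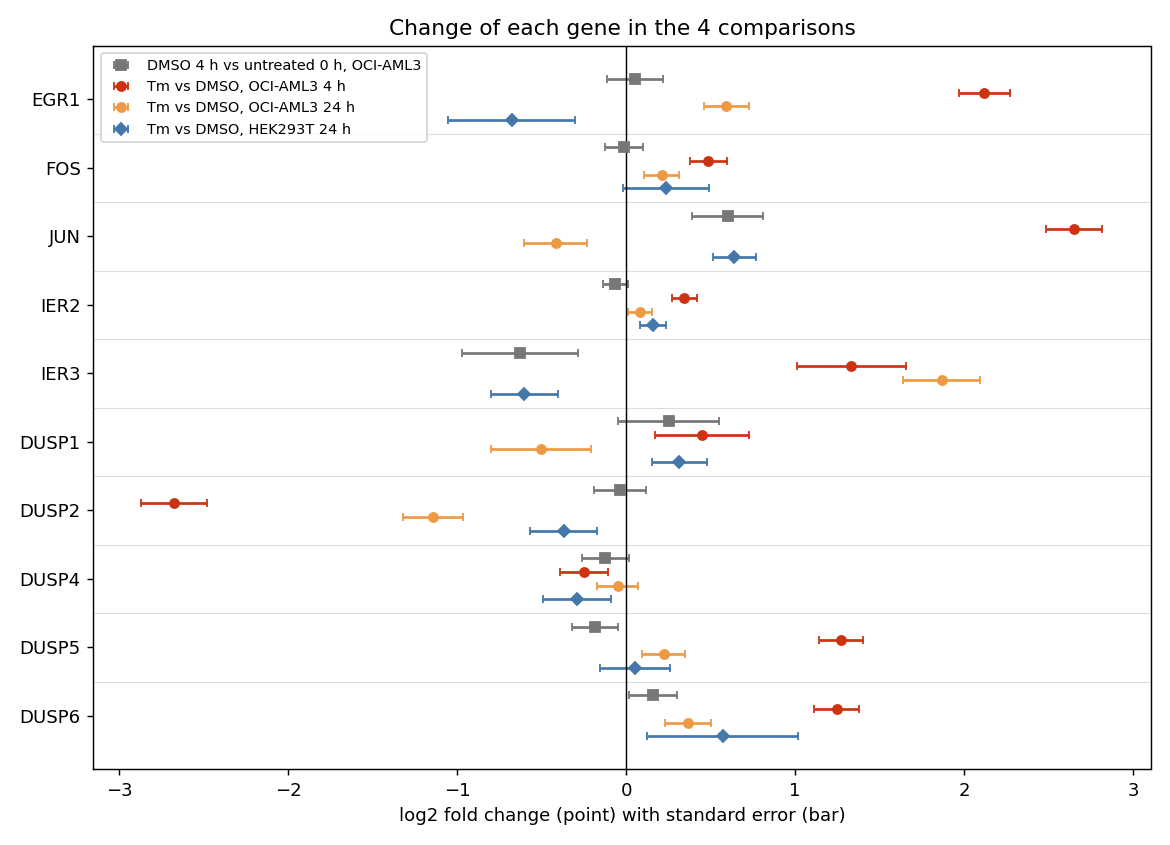
Log2 fold change of each gene (point) with its standard error (bar) for DMSO at 4 h against untreated cells (grey squares), Tm against DMSO in OCI-AML3 at 4 h (red) and 24 h (orange), and Tm against DMSO in HEK293T at 24 h (blue diamonds). JUN lay at 2.65, -0.42 and 0.64 and DUSP2 at -2.67, -1.14 and -0.37 in the Tm comparisons, in that order.

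Among the phosphatases, DUSP1 (ENSG00000120129, chr5:172768096-172771195, minus strand), which acts on p38 and JNK as well as ERK, was low in OCI-AML3, with 14 to 39 counts a library. It was at 1.06, 2.24 and 1.14 CPM in DMSO and 2.49, 1.87 and 1.67 CPM in Tm at 4 h, and at 2.22, 1.93 and 1.54 CPM in DMSO and 1.54, 1.86 and 0.760 CPM in Tm at 24 h. The groups overlapped at both times, with log2 fold changes of 0.45 ± 0.28 and -0.50 ± 0.29. The early value moved to 0.86 without DMSO 4 h replicate 2, and the later to -0.12 without Tm 24 h replicate 3. In HEK293T it was at 13.6 to 15.5 CPM in DMSO and 17.4 to 19.5 CPM in Tm, without overlap, a log2 fold change of 0.32 ± 0.16.

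DUSP2 (ENSG00000158050, chr2:96143169-96145440, minus strand), a nuclear phosphatase best known from blood cells, was the gene of the 10 that was lower in Tm in all 3 comparisons without overlap. It was at 7.37, 7.23 and 6.20 CPM untreated and 7.10, 7.16 and 6.06 CPM in DMSO at 4 h. In Tm at 4 h it was at 0.958, 1.11 and 1.09 CPM, from 15, 19 and 15 counts. The log2 fold change was -2.67 ± 0.19, the 11th lowest of 14012 genes tested. At 24 h it was at 4.37, 6.05 and 5.30 CPM in DMSO and 2.45, 2.53 and 2.17 CPM in Tm, without overlap. The log2 fold change there was -1.14 ± 0.18, and it was -0.98 without DMSO 24 h replicate 2, which puts it just inside the threshold and not called. In HEK293T the levels were 1.78, 2.27 and 1.76 CPM in DMSO and 1.27, 1.68 and 1.55 CPM in Tm, a log2 fold change of -0.37 ± 0.20 without overlap.

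DUSP4 (ENSG00000120875, chr8:29333064-29350684, minus strand), a nuclear phosphatase induced by ERK, had overlapping Tm and DMSO libraries in every Tm comparison. It was at 7.20 to 7.86 CPM in DMSO and 5.62 to 7.32 CPM in Tm at 4 h, which overlapped. At 24 h it was at 17.5 to 22.9 CPM in DMSO and 18.7 to 20.3 CPM in Tm, which overlapped too. The log2 fold changes with Tm were -0.25 ± 0.14 at 4 h, -0.05 ± 0.12 at 24 h and -0.29 ± 0.20 in HEK293T, where it was at 1.85 to 2.18 CPM in DMSO and 1.36 to 1.88 CPM in Tm.

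DUSP5 (ENSG00000138166, chr10:110497907-110511533, plus strand), a nuclear phosphatase specific for ERK, was called in Tm at 4 h and in neither other Tm comparison. It was at 8.46, 10.2 and 9.79 CPM untreated, 9.62, 7.35 and 8.06 CPM in DMSO at 4 h and 20.05, 20.9 and 19.5 CPM in Tm at 4 h. The Tm libraries lay close together and above all others of the early time, with a log2 fold change of 1.27 ± 0.13. At 24 h it was at 11.2, 11.6 and 13.1 CPM in DMSO and 13.9, 15.8 and 12.2 CPM in Tm, which overlapped, a log2 fold change of 0.22 ± 0.13. In HEK293T it was at 1.23 to 2.01 CPM in DMSO and 1.55 to 1.79 CPM in Tm, which overlapped.

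DUSP6 (ENSG00000139318, chr12:89347235-89352501, minus strand), the cytoplasmic phosphatase of ERK and a common readout of its activity, was alike in size to DUSP5 at 4 h. It was at 12.5, 11.6 and 11.3 CPM untreated, 13.3, 13.03 and 13.3 CPM in DMSO and 36.2, 27.8 and 30.0 CPM in Tm at 4 h. The log2 fold change was 1.25 ± 0.13, with no overlap between Tm and DMSO. At 24 h it was at 15.04, 11.5 and 14.8 CPM in DMSO and 16.9, 18.7 and 17.6 CPM in Tm, again without overlap, with a smaller log2 fold change of 0.37 ± 0.14. In HEK293T it had only 7, 3 and 9 counts in DMSO and 7, 5 and 13 counts in Tm. At that depth no change with Tm was resolved: the log2 fold change was 0.57 ± 0.45 and -0.01 without Tm replicate 3.

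The Tm effect at 24 h minus that at 4 h in OCI-AML3 was below 0 for JUN, EGR1, DUSP5, DUSP1, DUSP6, FOS and IER2, at -3.07 ± 0.25, -1.53 ± 0.20, -1.05 ± 0.18, -0.96 ± 0.40, -0.88 ± 0.19, -0.28 ± 0.15 and -0.26 ± 0.10. Without DMSO 4 h replicate 2 it was -3.48 for JUN, -1.78 for EGR1 and -1.37 for DUSP1. It was above 0 for DUSP2 at 1.53 ± 0.27, for IER3 at 0.53 ± 0.42 and for DUSP4 at 0.20 ± 0.19. For DUSP2 the positive value means that Tm lay closer to DMSO at 24 h. In bulk RNA, fewer cells that express a gene and less RNA per cell cannot be told apart.

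The untreated libraries served as a control for the solvent. DMSO at 4 h against untreated cells gave no call among the 10 genes, nor among all genes: 0% of the 14012 genes tested were called higher and 0% lower by edgeR. limma voom and DESeq2 also called none, and at an unadjusted p under 0.05 the counts over all genes were 1160 with edgeR, 1186 with limma voom and 1130 with DESeq2, with 1 of the 10 genes in each. JUN was higher in every DMSO library than in any untreated library, with a log2 fold change of 0.60 ± 0.21, which came to 0.19 without replicate 2. DUSP6 did not overlap either, at 13.03 to 13.3 CPM in DMSO and 11.3 to 12.5 CPM untreated, a log2 fold change of 0.16 ± 0.14. IER3 had the lowest value, -0.63 ± 0.35, with groups that overlapped. DUSP1 turned from 0.25 ± 0.30 to -0.16 without replicate 2, and EGR1 from 0.05 ± 0.17 to -0.20. The other 5 genes lay between -0.18 (DUSP5) and -0.01 (FOS), with groups that overlapped. FOSB, outside the 10 genes, was at 1.04, and at 0.67 without replicate 2, and was not called. Solvent, handling and 4 h of culture cannot be told apart here.

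Of the 10 genes, 3 were called between the DMSO libraries of the 2 times. This comparison was not among those that chose the genes. Its DMSO libraries serve in those, however, and the levels in all 7 groups were known at the choice. Its adjusted p-values are thus not independent of the choice and are given as a description. EGR1, DUSP4 and IER3 rose from DMSO 4 h to DMSO 24 h, 3 of 10, beside 3.48% of the 14012 genes tested called higher and 0.664% called lower. The edgeR quasi-likelihood log2 fold changes were 1.90 ± 0.15 for EGR1 (adjusted p = 2.1e-09), 1.44 ± 0.13 for DUSP4 (adjusted p = 1.7e-08) and 1.59 ± 0.32 for IER3 (adjusted p = 0.00038). For each of the 3, every library at 24 h was higher than every library at 4 h. FOS (0.95 ± 0.11, adjusted p = 4.8e-07), IER2 (0.76 ± 0.07, adjusted p = 4.8e-08), DUSP5 (0.52 ± 0.14, adjusted p = 0.0036) and JUN (0.56 ± 0.19, adjusted p = 0.02) passed the p threshold of the edgeR test and not that of the fold change. Without DMSO 4 h replicate 2 the values were 2.16 for EGR1, 0.97 for JUN and 0.78 for DUSP1. FOS was past both thresholds without DMSO 4 h replicate 1 or without DMSO 24 h replicate 2. For DUSP2, DUSP1 and DUSP6 the values were -0.36 ± 0.16, 0.37 ± 0.29 and 0.06 ± 0.14 (edgeR adjusted p = 0.068, 0.32 and 0.76). Time in DMSO and handling cannot be told apart.

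The comparisons of time in DMSO and of Tm at 4 h share the DMSO 4 h libraries, and their log2 fold changes stand side by side here without a test. For EGR1 the values were 1.90 with time and 2.12 with Tm at 4 h. For JUN they were 0.56 and 2.65, for DUSP4 1.44 and -0.25, and for DUSP2 -0.36 and -2.67.

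The lines differed widely in their levels after 24 h in DMSO. That comparison shares its DMSO libraries with those that chose the genes, whose levels were known at the choice. Its adjusted p-values for the 10 genes are thus not independent of the choice and are given as a description. In DMSO at 24 h all 10 genes differed between HEK293T and OCI-AML3, with JUN, DUSP1 and IER3 higher and the other 7 lower in HEK293T, beside 20.3% of the 14012 genes tested called higher and 24.9% called lower. JUN was 22.0-fold higher in HEK293T (log2 fold change 4.46 ± 0.16, edgeR adjusted p = 1.8e-17), DUSP1 8.05-fold (edgeR adjusted p = 8.2e-12) and IER3 3.31-fold (edgeR adjusted p = 2.9e-07). DUSP6, EGR1 and FOS were the lowest relative to OCI-AML3, with log2 fold changes of -5.41 ± 0.24, -4.99 ± 0.20 and -4.94 ± 0.16 (edgeR adjusted p at most 1.2e-15). DUSP4 (-3.29 ± 0.15), DUSP5 (-2.81 ± 0.16), IER2 (-2.01 ± 0.08) and DUSP2 (-1.39 ± 0.18) were lower too (edgeR adjusted p at most 1.5e-07). For all 10 genes the libraries of the lines did not overlap. How many of all genes tested did the same is not given here, so nothing is read from that count. The line, its culture and its handling cannot be told apart.

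Levels of different genes were compared per length of merged exons (RPKM, which is CPM divided by exon length in kilobases; GENCODE 44). In OCI-AML3 in DMSO at 24 h the order was IER2 (36.5 ± 1.51 SD, n = 3), EGR1 (10.2 ± 1.13), FOS (7.44 ± 1.00), DUSP5 (4.72 ± 0.384), DUSP6 (3.57 ± 0.514), JUN (3.03 ± 0.112), DUSP4 (2.81 ± 0.380), DUSP2 (2.72 ± 0.437), IER3 (1.31 ± 0.258) and DUSP1 (0.942 ± 0.170). The SD ranges of DUSP6, JUN, DUSP4 and DUSP2 overlapped from each to the next, as did those of IER3 and DUSP1, so these neighbours have no clear order. With the length of the canonical transcript instead, a choice made after seeing the data, FOS (11.3 RPKM) came above EGR1 (10.2 RPKM). In Tm at 4 h JUN (12.9 ± 1.53 RPKM) and EGR1 (11.9 ± 1.203 RPKM) came next after IER2 (27.3 ± 1.65 RPKM), with overlapping SD ranges of JUN and EGR1, and DUSP2 was last at 0.546 ± 0.0432 RPKM. In DMSO at 4 h JUN had been at 2.06 ± 0.891 RPKM and DUSP2 at 3.51 ± 0.321 RPKM.

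In HEK293T in DMSO the order began with JUN (64.5 ± 3.26 RPKM), then IER2 (8.79 ± 0.793 RPKM), DUSP1 (7.37 ± 0.517 RPKM) and IER3 (4.19 ± 0.571 RPKM). The other 6 were at 1.00 RPKM or less, down to DUSP6 at 0.0776 ± 0.0330 RPKM.

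**Figure D3:**
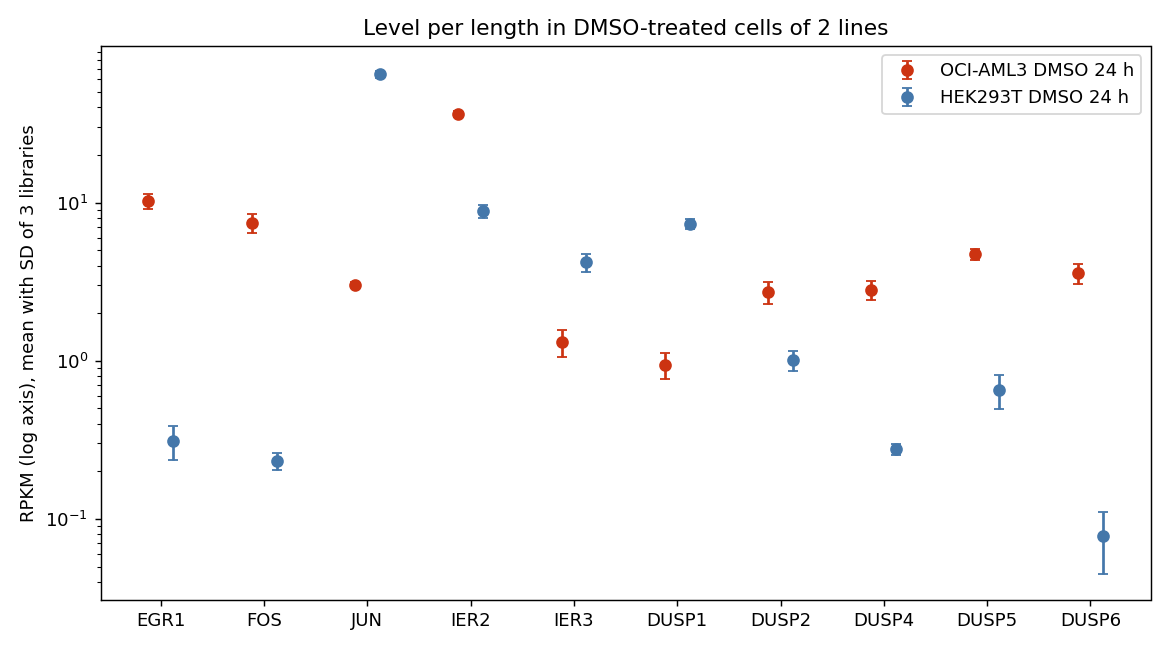
Level per length (RPKM, log axis) of each gene in DMSO at 24 h, as the mean of 3 libraries with the SD as a bar, in OCI-AML3 (red) and HEK293T (blue). JUN stood at 64.5 RPKM in HEK293T and 3.03 RPKM in OCI-AML3, and EGR1 at 0.309 and 10.2 RPKM.

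The genes with the most similar pattern over the 15 OCI-AML3 libraries were found by Pearson's r of log2 CPM, as a description over libraries that share depth and treatment groups. For EGR1 they were VLDLR (r = 0.981), KLF10 (0.974) and TXNIP (0.973), and for FOS they were MKRN1 (0.985), LMO2 (0.980) and CD244 (0.980). For JUN they were KLF6 (0.973), DCP1A (0.969) and YY1AP1 (0.969). DUSP2 was matched by HNRNPH3 (0.977), EIF4E2 (0.976) and MEX3A (0.973), and DUSP6 by CTH (0.978), SIAH2 (0.975) and OSBP (0.969). DUSP1, at its low counts, reached only 0.848 with XRCC1, 0.845 with NUTM2B and 0.774 with CRTC2. Among the 10 genes themselves, FOS and IER2 ran together (r = 0.960) and DUSP2 ran against DUSP6 (r = -0.960).

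Other genes of the pathway were taken from lists written with earlier results of these data known, so their counts and adjusted p-values are not independent of that knowledge. For every list, the shares of all genes tested called in the same comparison between groups are those printed above for the 10 genes. For differences between Tm effects no such share is given. Of 30 other immediate early genes, 24 passed the filter on low counts, and EGR2, EGR3, EGR4, NR4A3, CCN1 and ARC did not. In Tm at 4 h in OCI-AML3, 10 of the 24 rose and none fell by edgeR, beside 3.45% of the 14012 genes tested called higher and 1.47% called lower. The median log2 fold change of the list was 0.67 against -0.02 over all genes. The farthest were ATF3, a transcription factor induced by ER stress, at 3.66 ± 0.17 (edgeR adjusted p = 6.7e-14), FOSB, a partner of JUN in AP-1, at 2.22 ± 0.28 (edgeR adjusted p = 1.5e-06) and ZFP36L1, which promotes decay of AU-rich RNA, at 1.87 ± 0.38 (edgeR adjusted p = 0.00049). ATF3 was at 2.19, 0.958 and 1.31 CPM in DMSO and 20.2, 18.7 and 17.3 CPM in Tm. FOSB was at 0.929, 2.24 and 1.37 CPM in DMSO, with the highest value again in replicate 2, and at 8.55, 6.03 and 6.67 CPM in Tm. Neither gene's groups overlapped, and FOSB was at 2.60 without that library. ZFP36L1 was low in DMSO at 4 h, at 0.531, 0.703 and 0.857 CPM, and all its changes that use those libraries rest on that low level. CCN2, a secreted matrix protein and target of YAP and SRF, lay at the threshold on the lower side: its log2 fold change was -0.9996, from 22, 38 and 23 counts in DMSO and 21, 10 and 9 counts in Tm, and was called lower without DMSO replicate 1 (-1.10), DMSO replicate 3 (-1.17) or Tm replicate 1 (-1.47), while it was at -0.68 without DMSO replicate 2. limma voom and DESeq2 each made 11 calls in place of 10. With no filter on low counts edgeR called 10 of the 30 higher and 1 lower. Of those higher calls 1 was a gene that had not passed the filter, so not all rises among the 24 kept their call.

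At 24 h CCN2 rose by 1.47 ± 0.35 (edgeR adjusted p = 0.0015) and FOSL1, an AP-1 member, fell, with a log2 fold change of -1.15 ± 0.16 (edgeR adjusted p = 5.2e-06), 1 of 24 in each direction. With no filter, 2 of 30 were called higher and 1 lower at 24 h, and 1 of the higher calls was a gene that had not passed the filter. The Tm effect differed between the times for ATF3 (-3.10 ± 0.27, edgeR adjusted p = 2.1e-08), FOSB (-2.00 ± 0.45, adjusted p = 0.0014) and ZFP36L1 (-1.42 ± 0.45, adjusted p = 0.018), all lower at 24 h than at 4 h. FOSB was at -2.38 without DMSO 4 h replicate 2. For CCN2 the difference had the other sign, 2.47 ± 0.53 (edgeR adjusted p = 0.00094), and was 2.15 without that library. In HEK293T ATF3 (2.24 ± 0.11, edgeR adjusted p = 3.3e-13) and JUND (1.22 ± 0.11, adjusted p = 3.1e-08) rose, 2 of 24, and none fell. For both the Tm effect was larger in HEK293T than in OCI-AML3 at 24 h, by 1.69 ± 0.23 (edgeR adjusted p = 9.8e-06) and 1.43 ± 0.16 (adjusted p = 8.2e-07). From DMSO 4 h to 24 h, ZFP36L1 (3.41), MAFF (1.82), IER5L (1.64) and ZFP36, 4 of 24, rose (edgeR adjusted p at most 2.7e-07). ATF3 was also called without DMSO 4 h replicate 1 (1.28) or DMSO 24 h replicate 3 (1.005), and CSRNP1 without DMSO 4 h replicate 3 (1.04). With no filter, 5 of 30 were called higher over that time, 1 of them a gene that had not passed the filter. Between the lines 2 were called higher and 14 lower in HEK293T, led by ATF3 (2.78) and RHOB (2.46) on the higher side and ZFP36 (-6.28), FOSL2 (-5.92) and FOSL1 (-4.89) on the lower side. The filter asks for 8 libraries and HEK293T has 6, so a gene present in HEK293T alone could not be tested. CCN1, ARC and NR4A3 were such genes, at 5.83, 2.91 and 0.995 CPM in HEK293T and 0.0990, 0.0478 and 0.0239 CPM in OCI-AML3. With no filter, 5 of 30 were called higher in HEK293T and 16 lower.

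**Figure D4:**
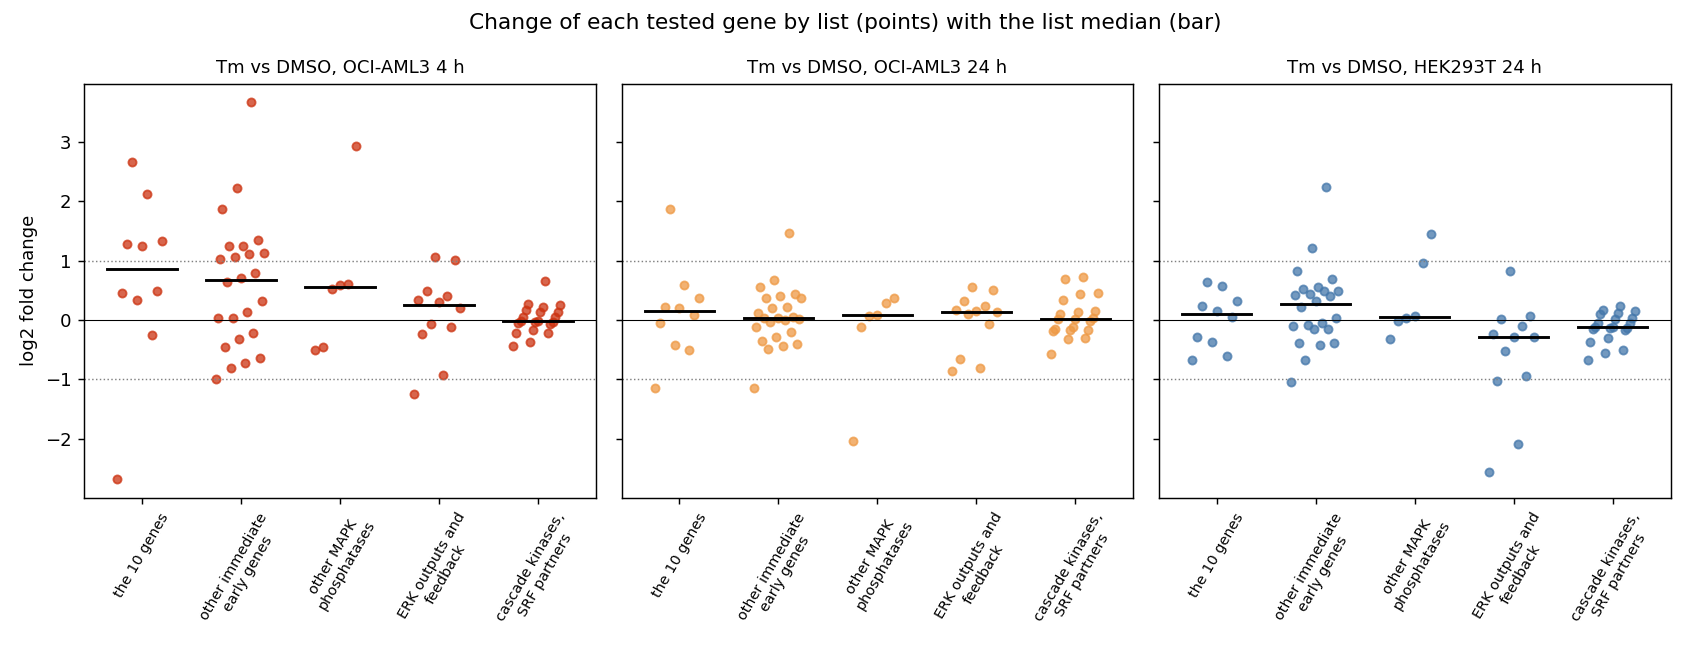
Log2 fold change with Tm of each gene tested (points) in the 10 genes and in 4 lists of related genes, with the list median as a bar and dotted lines at 1 and -1, in OCI-AML3 at 4 h (left) and 24 h (middle) and in HEK293T at 24 h (right). At 4 h the median was 0.87 for the 10 genes, 0.67 for the other immediate early genes and -0.02 for the cascade kinases and SRF partners.

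Of 6 other MAP kinase phosphatases, all tested, DUSP8, a phosphatase of JNK and p38, was higher in Tm at 4 h. It had 3, 2 and 3 counts in DMSO and 27, 19 and 15 counts in Tm. DUSP8 passed the filter only through the 3 Tm libraries at 4 h and the 6 of HEK293T, and would not have been tested without any 1 of these 3 groups, so it is described by its levels with no p-value. In HEK293T it was at 5.70, 5.11 and 4.27 CPM in DMSO and 13.78, 14.3 and 12.9 CPM in Tm, without overlap. DUSP9, a cytoplasmic phosphatase of ERK, fell in Tm at 24 h in OCI-AML3, to 1.26, 0.743 and 0.543 CPM from 3.44, 2.93 and 3.92 CPM, the former from 18, 10 and 10 counts (-2.03 ± 0.24, edgeR adjusted p = 3.4e-07). In DMSO at 24 h, DUSP9, DUSP16 and DUSP14 were called higher in HEK293T and DUSP7 and DUSP10 lower (edgeR adjusted p at most 2.1e-08), beside DUSP8, which was at 5.03 CPM there and 0.125 CPM in OCI-AML3. With DUSP8 counted, the calls of this list went from 6 to 5 with no filter on low counts, 3 higher and 2 lower. None of the 6 was called from DMSO 4 h to 24 h by edgeR, voom or DESeq2, with 3 of 6 at an unadjusted p under 0.05 in each. Over all 14012 genes tested that count was 7026 with edgeR, 6982 with voom and 6932 with DESeq2.

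Of 16 outputs and feedback genes of ERK, 12 were tested, and SPRY1, SPRED3, EPHA2 and EPHA4 did not pass the filter. SPRY2, a feedback inhibitor of receptor signalling, rose in Tm at 4 h from 64.7, 55.8 and 63.4 to 139.9, 120.2 and 122 CPM (1.06 ± 0.08, edgeR adjusted p = 8.8e-10). PHLDA1 rose by 1.01 ± 0.11 (edgeR adjusted p = 1.6e-07). Cyclin D1 (CCND1) fell from 74.4, 81.6 and 85.7 to 35.1, 32.7 and 34.6 CPM (-1.24 ± 0.08, edgeR adjusted p = 4.7e-11). Both rises lay near the threshold, and neither was called without DMSO 4 h replicate 2 (SPRY2 0.99, PHLDA1 0.98) or without Tm 4 h replicate 1 (0.99 and 0.91), which leaves 1 call of 3. At 24 h none was called in OCI-AML3 by edgeR, voom or DESeq2, with 5 of 12 at an unadjusted p under 0.05 in each. Over all 14012 genes tested that count was 7880 with edgeR, 7878 with voom and 7893 with DESeq2. In HEK293T ETV1, an ETS factor, fell to 0.0974, 0.315 and 0.647 CPM in Tm from 2.63, 1.70 and 1.63 CPM in DMSO, with 2, 6 and 10 counts in Tm (-2.56 ± 0.35, edgeR adjusted p = 8.6e-06), as did LIF (-1.02 ± 0.31, adjusted p = 0.016). LIF was not called without DMSO replicate 2 (-0.96), Tm replicate 1 (-0.96) or Tm replicate 3 (-0.72). Calls were also gained: ETV4 was called lower in 3 refits with a library left out (-2.10 to -5.19, at very low counts) and CCND1 without DMSO replicate 3 (-1.01). limma voom called 3 of the 12 with Tm in HEK293T, in place of 2 with edgeR. ETV1 and PHLDA1 rose from DMSO 4 h to 24 h in OCI-AML3, by 1.305 and 1.12 (edgeR adjusted p at most 0.00012). Between the lines 11 of 12 were called lower in HEK293T and none higher, among them SPRY4, ETV4 and ETV5, which stood at 50.2, 31.7 and 30.9 CPM in OCI-AML3 and 0.0502, 0.247 and 0.470 CPM in HEK293T in DMSO. That none was called higher was set by the filter: the 4 genes it removed, EPHA4, EPHA2, SPRY1 and SPRED3, were at 20.4, 12.8, 12.7 and 1.40 CPM in HEK293T, against 0 in every OCI-AML3 library for EPHA4 and 0.750, 0.652 and 0.208 CPM in OCI-AML3 in DMSO at 24 h for the others. With no filter, 4 of 16 were called higher in HEK293T and 11 lower.

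The list of 20 MAP kinases, their upstream kinases and partner factors of SRF was tested in full, and none was called with Tm at either time or in HEK293T, nor with time in DMSO. edgeR, voom and DESeq2 gave the same count of 0. At an unadjusted p under 0.05 the edgeR counts were 8 and 11 in OCI-AML3 at 4 h and 24 h, 8 in HEK293T and 14 with time in DMSO. Over all 14012 genes tested they were 6321, 7880, 5130 and 7026 in the same order. By the edgeR adjusted p threshold alone, 7, 9, 7 and 13 of the 20 passed, so the absence of calls rests on the fold change threshold too. Their log2 fold changes with Tm lay between -0.68 and 0.73. Between the lines 2 were called higher in HEK293T, MRTFB (2.34) and MAP2K4 (1.13), and 4 were called lower, MRTFA (-2.51), ELK3 (-1.39), MAP2K3 (-1.06) and MAPK14 (-1.03), with edgeR adjusted p at most 9.3e-10. MAPK14 lay at the threshold and lost its call in several refits with a library left out. Its values there ran from -0.95 without HEK293T DMSO replicate 1 to -0.999 without OCI-AML3 Tm 24 h replicate 3. MAP2K6 was called higher in HEK293T without HEK293T DMSO replicate 1 (1.01) or replicate 2 (1.02). With no filter on low counts 1 was called higher and 4 lower. In DMSO at 4 h against untreated cells no gene of the 4 lists was called.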

How the data were processed

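Polyadenylated RNA of 21 libraries was sequenced in paired ends by the authors, mapped to GRCh38 with STAR and quantified with RSEM against Ensembl genes. The values deposited by the authors are RSEM expected counts per gene, not normalised, in which reads that map to several genes are divided between them. Whether counting used strand is not given in the sources used here, so reads of overlapping or antisense genes cannot be told apart.

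The expected counts were rounded to whole numbers and fitted with edgeR 4.0.16 (R 4.3.3): TMM scaling, a mean for each of 7 groups and the quasi-likelihood test, over the 14012 genes that reached 1 CPM in 8 or more libraries, the filter of the study. The study itself used limma voom, which was run as an alternative (limma 3.58.1), as was DESeq2 1.42.0. P-values were adjusted over all genes tested by the Benjamini-Hochberg method. Calls required adjusted p ≤ 0.05 together with an absolute log2 fold change over 1. SEs are those of the log2 fold change. In the text, rose and fell are used only of genes that were called. Scripts were tested on simulated data. Figures were drawn with matplotlib 3.10.9.

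Library totals were 13838466 to 19961798 counts (median 16657737). The 10 genes and the lists of related genes were chosen with earlier results of these data known. All 10 passed the filter. Of each list, the text names the 3 called genes farthest from 0 in each direction of a comparison; ZFP36, DUSP14 and MAPK14, which complete short counts, were named after their values had been seen. Gene positions and lengths are from GENCODE 44 on GRCh38. Alternatives were other scalings, filters and tools, a replicate block, fits on the compared groups alone and leaving out each library in turn. The length of the canonical transcript and a variant motif were added after seeing the data.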

Additional observations from a re-analysis of the deposited data

Results flagged for a closer look

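In 4 instances, all Tm libraries of a gene lay on one side of DMSO in one setting and all on the other side in another. For JUN the Tm effect at 24 h minus that at 4 h in OCI-AML3 was -3.07 on the log2 scale, and the effect in HEK293T minus that in OCI-AML3 at 24 h was 1.06. For EGR1 the effect in HEK293T minus that in OCI-AML3 was -1.27, from 10 to 24 counts per HEK293T library. For IER3 the effect in HEK293T minus that in OCI-AML3 was -2.47. These differences were not tested, since the genes were chosen by these comparisons. How many of all genes tested were ordered in such a way is not given here, so nothing is read from the count of 4.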

How the results depend on the processing

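The counts of the 10 genes called, 6 for Tm at 4 h and 2 at 24 h in OCI-AML3, 0 with Tm in HEK293T, 0 for DMSO at 4 h against untreated cells, 3 for DMSO at 24 h against 4 h and 10 between the lines, were the same with limma voom, DESeq2, other scalings, other filters and fits on the compared groups alone. With single libraries left out, the count at 24 h was 1 to 2, with 1 only without DMSO 24 h replicate 2, where DUSP2 came to -0.98, and the count for DMSO 24 h against 4 h was 3 to 4, with FOS added. The direction turned for DUSP6 in DMSO at 24 h against 4 h, which was -0.0596 without TMM scaling, and -0.00722 to 0.18 with single libraries left out. Changes near 0 also turned with a single library left out: DUSP4 with Tm at 24 h (-0.05 to 0.09), DUSP5 with Tm in HEK293T (0.05 to -0.13), and, for DMSO at 4 h against untreated cells, DUSP2 (-0.04 to 0.04), FOS (-0.01 to 0.05), DUSP4 (-0.12 to 0.01), DUSP1 and EGR1. Scaling by library size alone shifted the median of all genes by -0.119 for DMSO at 24 h against 4 h and by 0.344 between the lines, where the calls among the ERK outputs went from 11 to 9 and those among the kinases and SRF partners from 6 to 5. The labels give replicate numbers in every group. Same-numbered Tm and DMSO libraries had correlated deviations of only -0.139 to 0.132, so the numbers were not taken as pairs, and with the replicate block the counts stayed at 6, 2, 0, 0, 3 and 10. The other immediate early genes between the lines gave 16 calls, and 21 with no filter on low counts, where more of them were tested (3 of the added calls higher in HEK293T, 2 lower); with Tm at 4 h they gave 9 to 11 with single libraries left out, as NR4A2 was lost or CCN2 was called lower. DUSP16 with Tm in HEK293T was called at 1.00 without DMSO replicate 3. Of the ERK outputs, the 2 calls for DMSO 24 h against 4 h became 1 without TMM scaling, and the 0 calls with Tm at 24 h became 1 with no filter on low counts. Low counts limit IER3 and DUSP1 in OCI-AML3 and DUSP6, EGR1 and FOS in HEK293T. The canonical transcript length, tried after seeing the data, exchanged neighbours in 4 of the 7 groups, among them FOS and EGR1 and JUN and DUSP4 in DMSO at 24 h.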
